A study of Mus musculus with 4 samples.

Results

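The Iroquois genes *Irx1*, *Irx2*, *Irx3*, *Irx4*, *Irx5* and *Irx6* were followed in cells of the *Prdm13* lineage from the mouse neural tube. They were found by their symbols in the deposited expression table, where all 6 are present among 24421 genes. Iroquois proteins are transcription factors with a homeodomain of the TALE class, in which extra residues separate the first helices. The mouse genes form a pair of clusters that came from an ancient duplication, so that *Irx1* and *Irx3*, *Irx2* and *Irx5*, and *Irx4* and *Irx6* are partners in sequence. In the neural tube *Irx3* is a progenitor factor that lies dorsal to the motor neuron domain and is kept apart from *Olig2*, the motor neuron progenitor factor, by mutual repression. The Iroquois genes are also known for shaping the dorsal neural plate, the heart and the limb bud.

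RNA was sequenced from GFP+ cells sorted from neural tubes of mouse embryos at E11.5. The heterozygous control, *Prdm13* Het (*Prdm13* GFP/+), carries GFP in 1 *Prdm13* allele, and the mutant, *Prdm13* Homo (*Prdm13* GFP/GFP), carries it in both, so GFP marks cells in which the locus is or was active, in each genotype. PRDM13 is a repressor of transcription made in dorsal progenitors, among them those that give rise to inhibitory interneurons. The comparison asks which genes differ in these cells when functional PRDM13 is absent. The RNA of several embryos was combined into 1 pool for each genotype, and the 2 libraries made from each pool are technical replicates. Standard deviations and p-values therefore hold the variation between libraries and none of that between embryos or litters. Wild-type embryos and unsorted cells were not analysed here.

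Levels are RPKM, read counts scaled by exon length and by library size as the authors normalized them, and can be compared between genes. The 4 libraries held an estimated 11647788 to 18533520 reads, recovered from the RPKM values, and 11774 to 11831 genes at an RPKM of at least 1. A gene was tested with limma, on log2(RPKM + 0.1), when its mean RPKM was at least 1 in either genotype, which 12046 genes met. A gene passed the test at an adjusted p under 0.05 and was called when its fold also reached 1.5. Among all genes tested 6.33% were called, 3.65% higher and 2.67% lower in *Prdm13* Homo, while 9.76% passed as higher and 9.95% as lower. The median log2 fold change of all genes tested was 0.01. *Prdm13* itself had 114 and 127 RPKM in the Het libraries and 309.5 and 324 in the Homo libraries, a log2 fold change of 1.40 (SE 0.0613, limma adjusted p = 3.63e-05). Reads from the transcript of the GFP allele can still be counted on *Prdm13*, so this level does not measure functional PRDM13.

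The labelled tissue was checked against marker lists. All 10 neural progenitor markers and all 10 neuron markers were tested, and the progenitor markers summed to 2450 and 2468 RPKM in the Het libraries and 2449 and 2549 in the Homo libraries. The neuron markers summed to 1744 and 1791 RPKM in the Het libraries and 2228 and 2319 in the Homo libraries, without overlap, and 6 of the 10 passed as higher and 1 as lower by limma's adjusted p. All 7 markers of dorsal inhibitory neurons, 1 of the fates of the *Prdm13* lineage, were called lower in *Prdm13* Homo, from a summed 502 to 541 RPKM down to 96.3 to 102. All 7 markers of dorsal excitatory neurons were called higher, from 30.4 to 33.3 up to 195 to 201 RPKM. Among them, *Tlx1* met the filter only through its mutant mean, so it could be tested only as higher. These lists are named here because the study is about this shift, and they are not new evidence of it. In bulk RNA, fewer cells of a type and less RNA per cell cannot be told apart, and the part that this change of cell types has in the Iroquois values was not tested.

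The Iroquois genes share a homeobox, and the stretch of it that is most alike in all 6 genes is shown because reads from it and the bases around it could be assigned to the wrong member. The window is 120 coding bases long, lies in 1 exon of each gene, and was read from GRCm38, the build on which the reads were mapped (mm10). Capitals mark the 105 positions at which all 6 genes carry the same base.
*Irx1*: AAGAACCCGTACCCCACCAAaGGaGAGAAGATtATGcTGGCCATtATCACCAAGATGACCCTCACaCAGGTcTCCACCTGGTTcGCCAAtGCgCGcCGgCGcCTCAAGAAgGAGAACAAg
*Irx2*: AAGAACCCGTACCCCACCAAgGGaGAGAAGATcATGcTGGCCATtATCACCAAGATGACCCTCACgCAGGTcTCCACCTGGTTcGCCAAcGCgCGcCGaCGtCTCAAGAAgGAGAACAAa
*Irx4*: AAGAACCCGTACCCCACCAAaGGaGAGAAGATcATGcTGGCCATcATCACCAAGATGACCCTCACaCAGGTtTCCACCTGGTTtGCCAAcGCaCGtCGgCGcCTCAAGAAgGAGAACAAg
*Irx3*: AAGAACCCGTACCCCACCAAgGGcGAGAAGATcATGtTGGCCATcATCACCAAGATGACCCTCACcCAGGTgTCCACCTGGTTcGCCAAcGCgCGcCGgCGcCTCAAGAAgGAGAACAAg
*Irx5*: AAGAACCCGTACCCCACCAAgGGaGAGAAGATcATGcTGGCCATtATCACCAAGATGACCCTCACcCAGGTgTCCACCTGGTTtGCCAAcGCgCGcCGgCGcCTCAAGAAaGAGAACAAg
*Irx6*: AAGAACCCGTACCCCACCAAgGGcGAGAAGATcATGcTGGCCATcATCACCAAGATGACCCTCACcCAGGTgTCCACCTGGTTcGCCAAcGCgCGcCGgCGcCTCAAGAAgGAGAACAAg
The window of *Irx1* is chr13:71959992-71960111 on the minus strand, that of *Irx2* chr13:72630733-72630852 on the plus strand and that of *Irx4* chr13:73267592-73267711 on the plus strand. The window of *Irx3* is chr8:91800496-91800615 on the minus strand, that of *Irx5* chr8:92359696-92359815 on the plus strand and that of *Irx6* chr8:92677305-92677424 on the plus strand.

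Between pairs of members, 91.7% (*Irx2* and *Irx4*) to 99.2% (*Irx3* and *Irx6*) of the 120 bases were the same. The partners *Irx1* and *Irx3* shared 93.3%, *Irx2* and *Irx5* 94.2%, and *Irx4* and *Irx6* 94.2%. This window therefore does not set the partners apart from other pairs. Over the whole coding sequences, the longest run shared without a mismatch was 23 to 88 bases in the 15 pairs. It was longest for *Irx3* and *Irx6*, 88 bases at chr8:91800491-91800578 and chr8:92677342-92677429. *Irx2* and *Irx5*, which lie in different clusters, shared 65 bases, and *Irx3* and *Irx5* shared 50. The read length is not given in the sources used here, so it is not known which reads could fall wholly within such a run. *Irx6*, with 12 to 19 reads in a library against 986 to 2168 for *Irx3*, is the member whose small value is most open to this.

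The IrxA cluster holds *Irx1*, *Irx2* and *Irx4* on chromosome 13, within chr13:71958232-73269622 in the RefSeq annotation of GRCm38. *Irx1* (gene ID 16371) lies at chr13:71958232-71963723 on the minus strand, *Irx2* (16372) at chr13:72624430-72634196 on the plus strand and *Irx4* (50916) at chr13:73259589-73269622 on the plus strand. The IrxB cluster holds *Irx3*, *Irx5* and *Irx6* on chromosome 8, within chr8:91798511-92680956. *Irx3* (16373) lies at chr8:91798511-91801654 on the minus strand, *Irx5* (54352) at chr8:92357796-92361456 on the plus strand and *Irx6* (64379) at chr8:92674289-92680956 on the plus strand.

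In the *Prdm13* mutant, *Irx3* was called higher, *Irx5* was higher by less than the 1.5-fold required, and *Irx2* was lower, also by less than 1.5-fold. *Irx1* was at 1.06-fold and did not pass the test, *Irx4* was near the RPKM of 1 required for testing and did not pass, and *Irx6* was under it. So 1 of the 5 members tested was called, beside 6.33% of all genes tested. Without the requirement on fold, 2 members passed as higher and 1 as lower, 3 of 5 beside 19.7% of all genes tested. The libraries of the genotypes did not overlap for any of the 5 members, 3 lying above and 2 below in the mutant. *Irx4*, 1 of the 2 below, met the filter only through its control mean, so it could be tested only as lower. It also counts in the medians given below. Of all genes tested, 31.7% lay wholly above and 30.3% wholly below. The median log2 fold change was 0.08 over the 5 members, -0.42 over the 3 IrxA genes and 0.54 over the 2 IrxB genes tested.

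**Figure D1:**
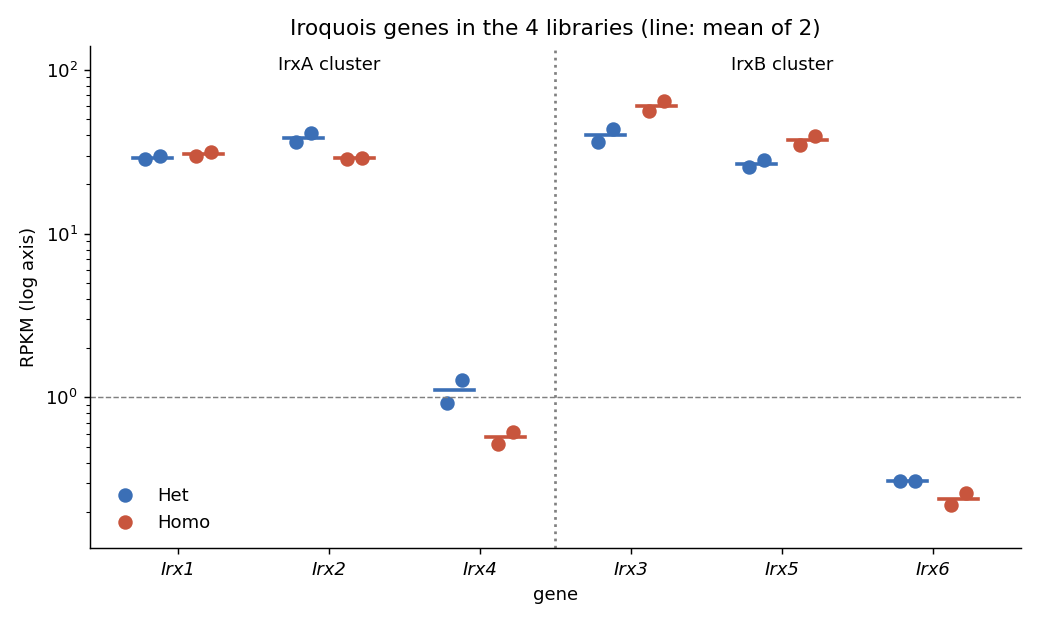
Level of each Iroquois gene (RPKM, log axis) in the 2 *Prdm13* Het and 2 *Prdm13* Homo libraries, with a line at the mean of each genotype, a dashed line at the RPKM of 1 used for testing and a dotted line between the clusters. *Irx3* and *Irx5* lie higher in both Homo libraries and *Irx2* lower, while *Irx4* and *Irx6* lie near or below an RPKM of 1.

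*Irx3*, the progenitor factor opposed to *Olig2*, had 36.1 and 43.7 RPKM in the Het libraries and 56.4 and 64.4 in the Homo libraries. Both mutant libraries were above both controls, and the means were 39.9 ± 5.39 and 60.4 ± 5.60 (SD, n = 2 libraries). The log2 fold change was 0.60 (SE 0.103, 95% confidence interval 0.36 to 0.85, limma adjusted p = 0.010), which is 1.51-fold. The 2 libraries of the Het pool differed from each other by 0.28 on the log2 scale and those of the Homo pool by 0.19. Over all genes tested, the median difference between libraries of 1 pool was 0.08 in each genotype. The exact Poisson intervals of the Het libraries, 33.8 to 38.4 and 41.7 to 45.7 RPKM, did not overlap, so for *Irx3* the libraries of 1 pool differed by more than counting error.

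The call on *Irx3* stood close to the required fold and depended on single libraries. Without Het replicate 1 the log2 fold change was 0.46 (limma adjusted p = 0.0409) and without Homo replicate 2 it was 0.51 (limma adjusted p = 0.109), and neither value was called. In such fits the spread comes from the other genotype, and the lone library is assumed to vary like it. *Irx3* was called without Het replicate 2 at 0.74 and without Homo replicate 1 at 0.70. With limma voom on the recovered reads the log2 fold change was 0.58 and the adjusted p 2.71e-06, just under the required fold of 0.585 on the log2 scale. By voom 6.72% of all genes tested were called, 3.74% higher and 2.98% lower. With 2 libraries in each genotype, the smallest two-sided p of an exact permutation test is 0.333, so no such test is given for a single gene.

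*Irx5*, the neighbour of *Irx3* in IrxB and the sequence partner of *Irx2*, had 25.4 and 28.0 RPKM in the Het libraries and 34.8 and 39.5 in the Homo libraries. The genotypes did not overlap, with means of 26.7 ± 1.88 and 37.1 ± 3.35 (SD, n = 2 libraries). The log2 fold change was 0.47 (SE 0.0800, 95% confidence interval 0.28 to 0.66, limma adjusted p = 0.00981), or 1.39-fold, so *Irx5* passed the test without being called. It no longer passed without Het replicate 1 (log2 fold change 0.40, limma adjusted p = 0.0609) or without Homo replicate 2 (0.38, limma adjusted p = 0.0871).

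*Irx2* went the other way. It had 36.2 and 41.0 RPKM in the Het libraries and 28.5 and 29.1 in the Homo libraries, so both mutant libraries were below both controls. The means were 38.6 ± 3.39 and 28.8 ± 0.428 (SD, n = 2 libraries), 1.34 times as high in the controls. The log2 fold change was -0.42 (SE 0.0689, 95% confidence interval -0.58 to -0.25, limma adjusted p = 0.00908), which passed the test and missed the fold. It no longer passed without Homo replicate 1 (log2 fold change -0.40, limma adjusted p = 0.0745) or without Homo replicate 2 (-0.43, limma adjusted p = 0.0851). These fold changes were close to that from all 4 libraries, and why these fits did not pass was not tested.

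*Irx1*, the other IrxA gene at a high level, had 28.5 and 29.7 RPKM in the Het libraries and 29.9 and 31.7 in the Homo libraries. The means of 29.1 ± 0.916 and 30.8 ± 1.26 (SD, n = 2 libraries) did not differ beyond their spread by the test, with a log2 fold change of 0.08 (SE 0.0559, 95% confidence interval -0.05 to 0.22, limma adjusted p = 0.353). The interval leaves out a change of 1.5-fold in either direction. *Irx1* rests on 679 to 1124 reads in a library.

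*Irx4*, known best as a factor of the ventricular heart muscle, was at the edge of the filter. It met the filter only through its control mean, so it could be tested only as lower in the mutant, also by voom. It had 0.930 and 1.28 RPKM in the Het libraries, from 28 and 61 reads, and 0.520 and 0.618 in the Homo libraries, from 22 reads each. The genotypes did not overlap, and the mean was 1.94 times as high in the controls (1.11 ± 0.247 against 0.569 ± 0.0694, SD, n = 2 libraries). The log2 fold change of -0.84 (SE 0.293, 95% confidence interval -1.54 to -0.13) did not pass the test (limma adjusted p = 0.0962). With limma voom on the recovered reads it did, at -0.99 with an adjusted p of 0.00902. The exact Poisson interval of Het replicate 1, 0.618 to 1.34 RPKM, overlaps those of both Homo libraries, 0.326 to 0.788 and 0.388 to 0.936. That of Het replicate 2, 0.979 to 1.64 RPKM, overlaps neither.

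*Irx6*, the third IrxB gene, did not reach the level required for testing. It had 0.308 RPKM in each Het library, from 12 and 19 reads, and 0.219 and 0.260 in the Homo libraries, from 12 reads each. These values are above the 3 reads taken as the limit of detection, which correspond to 0.0486 to 0.0769 RPKM for this gene. The Poisson intervals of the Het libraries, 0.159 to 0.538 and 0.185 to 0.481 RPKM, overlap those of the Homo libraries, 0.113 to 0.383 and 0.135 to 0.455. In the fit with no filter the log2 fold change was -0.27 (limma adjusted p = 0.434), in a fit in which *Irx3* did not pass either (adjusted p = 0.233). Intervals and limits of detection cover counting error only.

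In the controls *Irx3* and *Irx2* stood highest, and their libraries overlapped. They were followed by *Irx1* at 28.5 and 29.7 RPKM and *Irx5* at 25.4 and 28.0, which lay close together without overlapping. In the mutant the order was *Irx3*, *Irx5*, *Irx1* and *Irx2*, and the libraries of neighbours in that order did not overlap. *Irx4* and *Irx6* came last in both genotypes. *Irx2* thus went from a level shared with *Irx3* to the lowest of the 4 members above 1 RPKM. This order compares levels per kilobase of exon, and no test was run between genes.

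The summed level of IrxA was 65.6 and 72.0 RPKM in the Het libraries and 59.0 and 61.5 in the Homo libraries. That of IrxB was 61.8 and 72.0 in the Het libraries and 91.4 and 104 in the Homo libraries. The clusters were thus near each other in the controls and apart in the mutant. IrxA was 0.876 times its control mean (68.8 ± 4.56 against 60.2 ± 1.76, SD, n = 2 libraries) and IrxB 1.46 times (66.9 ± 7.27 against 97.8 ± 8.98). All 6 genes together were at 136 ± 11.8 RPKM in the controls and 158 ± 10.7 in the mutant.

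IrxB held 48.5 and 50.01% of the summed Iroquois level in the Het libraries and 60.8 and 62.9% in the Homo libraries. On the log2 scale, IrxB over IrxA was -0.09 and 0.0006 in the Het libraries and 0.63 and 0.76 in the Homo libraries. Both mutant libraries lay above both controls. A ratio within a library does not depend on how the library was scaled, and it shows unequal change without saying which cluster moved. No test was run on the sums, since they were built from chosen members.

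**Figure D2:**
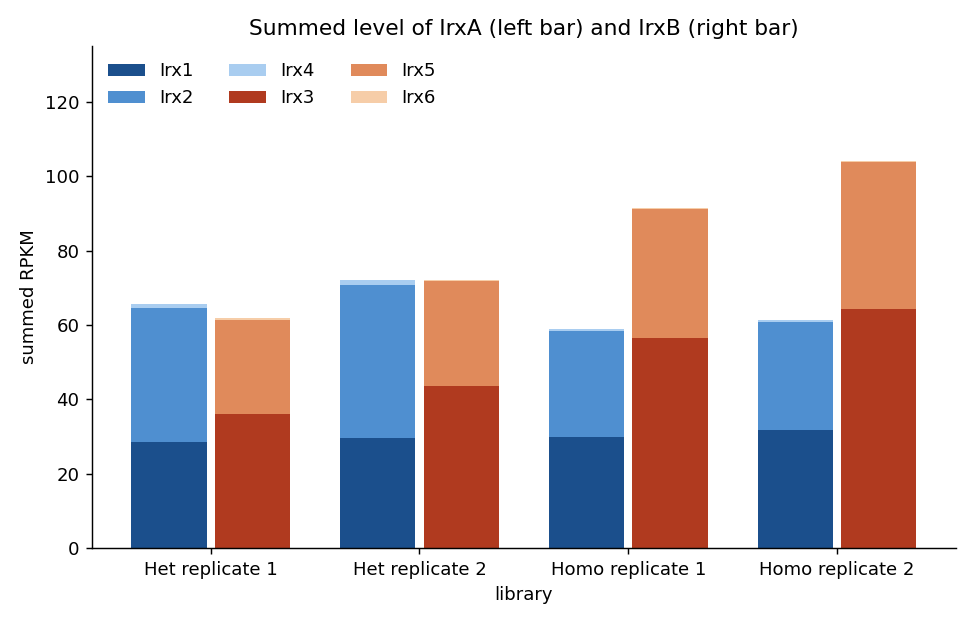
Summed RPKM of IrxA (left bar, blue) and IrxB (right bar, red) in each of the 4 libraries, stacked by gene. The bars of a control library are near each other, at 61.8 to 72.0 RPKM, while in the mutant IrxB reaches 91.4 and 104 RPKM beside 59.0 and 61.5 for IrxA.

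For the sequence partners in different clusters, the IrxB gene was higher relative to its IrxA partner in both mutant libraries than in either control library. *Irx3* over *Irx1* was 0.34 and 0.55 on the log2 scale in the Het libraries and 0.92 and 1.02 in the Homo libraries. *Irx5* over *Irx2* was -0.51 and -0.55 in the Het libraries and 0.28 and 0.44 in the Homo libraries, so the more abundant gene of this pair differed between the genotypes. *Irx6* over *Irx4*, from 12 to 61 reads a gene and library, was -1.60 and -2.06 in the Het libraries and -1.25 in both Homo libraries, with both genes at a lower mean RPKM in the mutant. Within IrxB the ratio of *Irx3* to *Irx5* spanned less, from 0.51 and 0.64 in the Het libraries to 0.70 in both Homo libraries. Within IrxA, *Irx2* over *Irx1* went from 0.35 and 0.46 in the Het libraries to -0.07 and -0.12 in the Homo libraries. *Irx1* and *Irx2* were therefore less alike in their difference than *Irx3* and *Irx5*. The low members *Irx4* and *Irx6* were left out of this comparison within clusters. These ratios were not tested.

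The other genes around the clusters give the setting of these differences. Within 1 Mb of IrxA, 13 other genes were tested, 1 was called, and their log2 fold changes had a median of 0.08 and ranged from -0.85 to 0.46. Within 1 Mb of IrxB, 7 other genes were tested, 3 had an unadjusted p under 0.05, none was called by limma or by voom, and the median was -0.08, with a range of -0.26 to 0.50. For the 7 genes near IrxB, 1 passed as higher and 1 as lower by limma's adjusted p alone. Near IrxA these counts were 3 and 1. Among all genes tested 6.33% were called, 9.76% passed as higher and 9.95% as lower. Of 14 neighbours listed by name, which overlap these genes, 11 were tested, 3 passed as higher, 1 as lower and none was called by limma or by voom.

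The lowest value near IrxA and the highest near IrxB both belonged to long noncoding RNAs inside the clusters, each next to a coding member that differed in the same direction. *Gm20554* had 3.24 and 3.06 RPKM in the Het libraries and 1.87 and 1.55 in the Homo libraries. It fell by 0.85 on the log2 scale (SE 0.140, limma adjusted p = 0.00891), and its mean was 1.84 times as high in the controls. In the GENCODE annotation it lies on the strand opposite to *Irx2* with its start 256 bases from that of *Irx2*, and 659.7 kb from *Irx1*. The RefSeq span of *Irx2*, which includes predicted transcripts, overlaps it.

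*Crnde* had 12.6 and 11.9 RPKM in the Het libraries and 17.4 and 17.3 in the Homo libraries. It passed the test at 1.42-fold without being called (log2 fold change 0.50, SE 0.0581, limma adjusted p = 0.00240). It lies 1.7 kb from *Irx5* on the opposite strand, 524.4 kb from *Irx3* and 318.2 kb from *Irx6*. The counting is not stated to use strand, so reads from a gene and a partner that overlaps it on the other strand cannot be told apart. Of the 2762 exon bases of *Irx3*, 124 (4.49%) are shared with *Irx3os* on the opposite strand, and of the 3370 exon bases of *Irx6*, 152 (4.51%) are shared with *Gm45505*. Neither gene has a row in the table.

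*Fto*, an RNA demethylase gene whose introns are known to hold distant regulatory elements of *Irx3*, lies 130.1 kb outside IrxB. It had 40.05 and 37.4 RPKM in the Het libraries and 38.8 and 40.5 in the Homo libraries, which overlap (log2 fold change 0.04, limma adjusted p = 0.697). *Rpgrip1l*, a ciliary gene beyond *Fto*, had a log2 fold change of -0.08 (limma adjusted p = 0.527). *Mrpl36*, a mitochondrial ribosomal protein gene 58.9 kb from the *Irx4* end of IrxA, passed the test at 1.37-fold (log2 fold change 0.46, limma adjusted p = 0.0273), in the direction opposite to *Irx2* and *Irx4*.

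**Figure D3:**
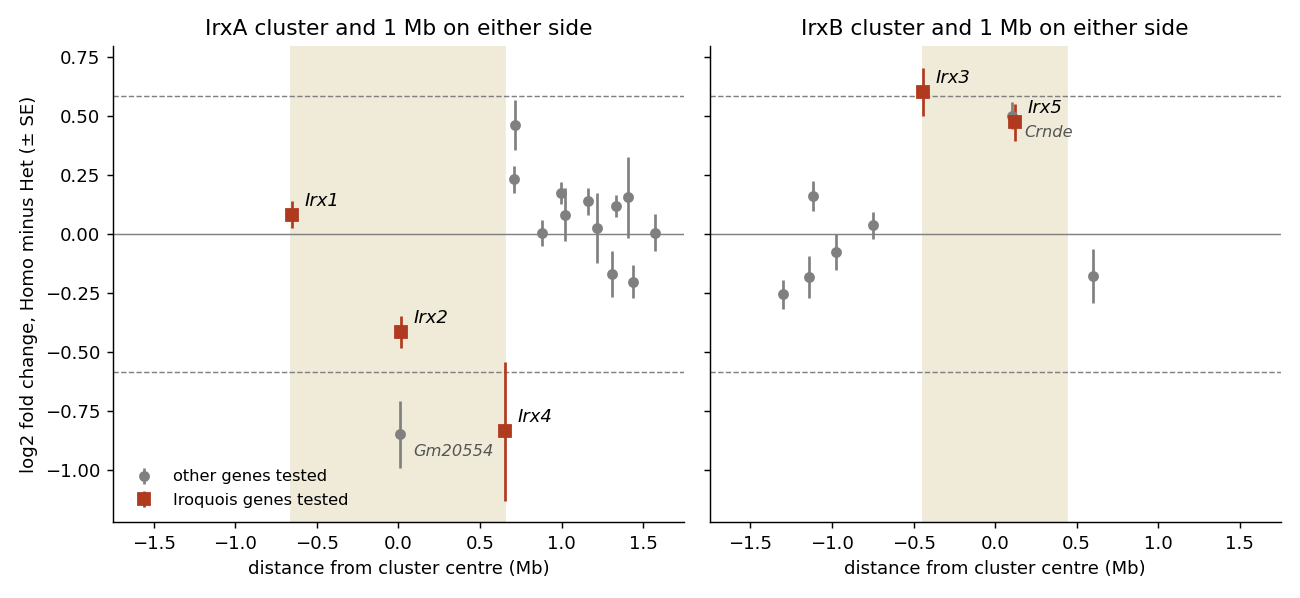
Log2 fold change, *Prdm13* Homo minus Het, with its SE (bars) for every gene tested within 1 Mb of IrxA (left) and IrxB (right), against the distance of the gene from the centre of the cluster in Mb. Shading marks the cluster and dashed lines a fold of 1.5. *Irx2* lies on the lower side with *Gm20554* and *Irx5* on the higher side with *Crnde*, while the genes outside the clusters lie between -0.26 and 0.46.

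Promoters are shown for *Irx2* and *Irx3*, the IrxA and IrxB members that differed in opposite directions from a shared level in the controls. RefSeq promoter entries of GRCm38 matched 3 of the 6 members, *Irx2*, *Irx3* and *Irx4*. The 250 bases before the start in each entry are given 5′ to 3′ on the gene's strand, chr13:72628570-72628819 (plus strand) for *Irx2* and chr8:91801655-91801904 (minus strand) for *Irx3*. Capitals mark each match to CANNTG, the E-box bound by basic helix-loop-helix factors, which reads the same on both strands.
*Irx2*: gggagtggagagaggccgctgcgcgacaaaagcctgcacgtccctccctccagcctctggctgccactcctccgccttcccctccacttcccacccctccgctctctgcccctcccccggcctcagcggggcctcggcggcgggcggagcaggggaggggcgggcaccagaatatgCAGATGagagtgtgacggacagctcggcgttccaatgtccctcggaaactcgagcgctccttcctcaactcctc
*Irx3*: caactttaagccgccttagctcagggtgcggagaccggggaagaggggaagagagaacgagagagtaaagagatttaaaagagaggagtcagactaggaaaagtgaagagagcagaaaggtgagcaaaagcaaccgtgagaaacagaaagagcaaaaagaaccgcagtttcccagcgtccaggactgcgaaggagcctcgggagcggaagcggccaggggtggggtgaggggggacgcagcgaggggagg
The *Irx2* window held 1 E-box and the *Irx3* and *Irx4* windows none, and 68.4% of the *Irx2* bases and 56.0% of the *Irx3* bases were G or C. Of 27025 promoter windows of this length 66% held at least 1 E-box, and 55% of the 9056 that belong to genes tested. These letters describe the windows only, and binding to them was not measured here. The GENCODE annotation starts *Irx3* further upstream, so the *Irx3* window lies within the span it gives the gene. The *Irx2* window lies just before the GENCODE start of *Irx2*. The *Irx2* and *Irx4* windows lie within the wider RefSeq spans given above.

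Other regulators that share a domain of action or a protein class with the Iroquois genes were counted as lists. Such counts stand beside 6.33% of all genes tested called, 9.76% passing as higher and 9.95% as lower. *Olig2*, the partner of *Irx3* in mutual repression, was listed at 0 and 0.0224 RPKM in the Het libraries, 0 and 1 read, and at 17.04 and 21.3 in the Homo libraries (limma adjusted p = 7.31e-06). *Olig2* and *Irx3* were thus both called higher in RNA of the same sorted cells, and whether this was in the same cells cannot be told from bulk RNA. Of the 5 class II progenitor factors, which mark ventral domains, 2 were tested and *Olig2* was the 1 called. *Nkx6-1* had a log2 fold change of 0.25 (limma adjusted p = 0.161). Of the 4 class I factors, which like *Irx3* are reduced by hedgehog signalling, 3 were tested and 1 was called higher. That was *Dbx1*, a factor of intermediate progenitors. It rose from 0.208 and 0.368 RPKM, 5 and 14 reads, to 1.42 and 1.58 RPKM, 48 and 45 reads (limma adjusted p = 0.00889). *Dbx1* and *Olig2* met the filter only through their mutant means, so they could be tested only as higher. *Pax6* passed as higher at 1.20-fold (limma adjusted p = 0.0202), and *Pax7*, with a mean 1.27 times as high in the controls, passed as lower (limma adjusted p = 0.0102). The median of the class I factors tested, *Dbx1* among them, was 0.26 on the log2 scale, beside 0.01 for all genes tested.

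Among 11 other TALE homeobox genes, which include Meis, Pbx, Pknox and Tgif genes, 10 were tested and 1 was called. *Meis3*, a hindbrain and spinal cord cofactor of Hox proteins, rose from 107 and 111 RPKM to 182 and 190 (1.71-fold, limma adjusted p = 0.000151). By adjusted p alone, 3 of the 10 passed as higher and 1 as lower, beside 9.76% and 9.95% of all genes tested. The median log2 fold change of the 10 was 0.09. The others passing as higher were *Meis2* at 1.17-fold and *Tgif2* at 1.33-fold, and *Pknox2* passed as lower, with a log2 fold change of -0.37. Of these 15 TALE genes tested, Iroquois genes included, *Meis3* and *Irx3* were called with limma on RPKM, and *Meis3* and *Irx4* with voom on the recovered reads. Over all genes tested, limma called 6.33% and voom 6.72%.

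Signals that pattern the neural tube were described by their response genes, beside 6.33% of all genes tested called by limma and 6.72% by voom. Of the 4 hedgehog response genes 3 were tested, 1 had an unadjusted p under 0.05, and none was called by limma or by voom. *Ptch1*, the hedgehog receptor and a target of the pathway, passed as lower at 17.5 and 16.9 RPKM in the Het libraries against 12.1 and 11.9 in the Homo libraries (log2 fold change -0.51, limma adjusted p = 0.00190). *Gli1*, a second target, had a log2 fold change of -0.14 (limma adjusted p = 0.618). Of 4 Wnt response genes tested 1 was called, *Lef1*, at 1.55-fold (limma adjusted p = 0.0436), while *Axin2* had a log2 fold change of -0.09 (limma adjusted p = 0.241).

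Of 4 FGF response genes tested, *Spry2* was called higher at 1.84-fold (limma adjusted p = 0.000175) and *Spry1* lower, with a control mean 1.66 times as high (limma adjusted p = 0.00991). Of 4 retinoic acid response genes tested 1 was called, *Cyp26a1*, an enzyme that breaks retinoic acid down. It had 0.194 and 0.245 RPKM in the Het libraries (4 and 8 reads) and 1.21 and 0.944 in the Homo libraries (35 and 23 reads, limma adjusted p = 0.0192). *Cyp26a1* met the filter only through its mutant mean, so it could be tested only as higher. The retinoic acid receptor gene *Rarb* passed as lower (log2 fold change -0.27, limma adjusted p = 0.0132). By limma's adjusted p alone, 1 FGF gene passed as higher and 2 as lower, and the median log2 fold change of those tested was -0.40. Of the retinoic acid genes, 2 passed as higher and 1 as lower, with a median of 0.19. Over all genes tested, 6.33% were called, 9.76% passed as higher and 9.95% as lower.

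Markers of other cells that the sort could hold were summed in each library. Counts of calls stand beside 6.33% of all genes tested by limma and 6.72% by voom. Mesenchymal markers summed to 5.22 to 5.55 RPKM in the Het libraries and 4.18 to 4.26 in the Homo libraries, with 1 of 8 tested and none called by limma or by voom. Endothelial markers summed to 4.24 to 5.34 and 3.69 to 4.72, with 2 of 6 tested, none called by limma and 1 by voom, and erythroid markers to 24.1 to 26.5 and 27.2 to 28.8, with 1 of 6 tested and none called by either. The adult globin genes *Hba-a1* and *Hbb-bt* were listed at 0 in all 4 libraries. The list of neural crest, glia and sensory ganglion markers summed to 13.03 to 16.2 and 20.7 to 23.04. Of its 3 genes tested 1 was called higher, *Prdm12*, and 1 lower, *Foxd3*, while the glial genes *Sox10* and *Erbb3* were under 1 RPKM in all 4 libraries. *Prdm12* met the filter only through its mutant mean, so it could be tested only as higher. *Prdm12* and *Foxd3* are also made within domains of the neural tube itself. Neural progenitor markers, among whose cells *Irx3* is known to be made, included 1 called gene of 10, *Sox1*, which was lower, and 3 passed as higher and 3 as lower. Of the 10 neuron markers, 3 were called higher, *Nefl*, *Nefm* and *Stmn2*, and 1 lower, *Snap25*. The part of these differences in the Iroquois values was not tested.

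The genes tested whose levels followed each member most closely over the 4 libraries were taken among genes within 1 log2 unit of its mean, by the distance between centred log2 values. For *Irx3* they were *Ngfr*, the neurotrophin receptor p75, *Crip2* and *Plk3*, at distances of 0.0350, 0.0479 and 0.0894 among 2876 genes compared. For *Irx5* they were *Cdk5r2*, *Sox13* and *Prex1*, at 0.0568, 0.0609 and 0.0676 among 4003. For *Irx2* they were *Auts2*, *Boc* and *Gatad2b*, at 0.0537, 0.0824 and 0.0914 among 3845. *Boc* encodes a coreceptor of hedgehog ligands and had a log2 fold change of -0.44. Genes picked by this distance have a fold change like that of the member, so such closeness follows from the choice. The genes nearest to *Irx1* included *Prpsap1* and *Cox7c*, and those nearest to *Irx4* were *Nfix*, *Zfpm2* and *Pik3r5*. With 4 libraries from 2 pools, such likeness describes these libraries only.

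Every way of processing the values that gave a fold change kept the direction of the 5 members tested. Only the pseudocounts, scalings, voom and left-out libraries could move a fold change. The filters, the eBayes trend, treat, no minimum fold and the replicate block leave it as it is. The log2 fold change ranged from 0.46 to 0.74 for *Irx3*, from 0.38 to 0.56 for *Irx5* and from 0.04 to 0.12 for *Irx1*. It ranged from -0.50 to -0.33 for *Irx2* and from -1.05 to -0.42 for *Irx4*, whose value nearest to 0 came with a pseudocount of 1. With technical replicates of 1 pool a kept direction describes the pools that were sequenced.

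**Figure D4:**
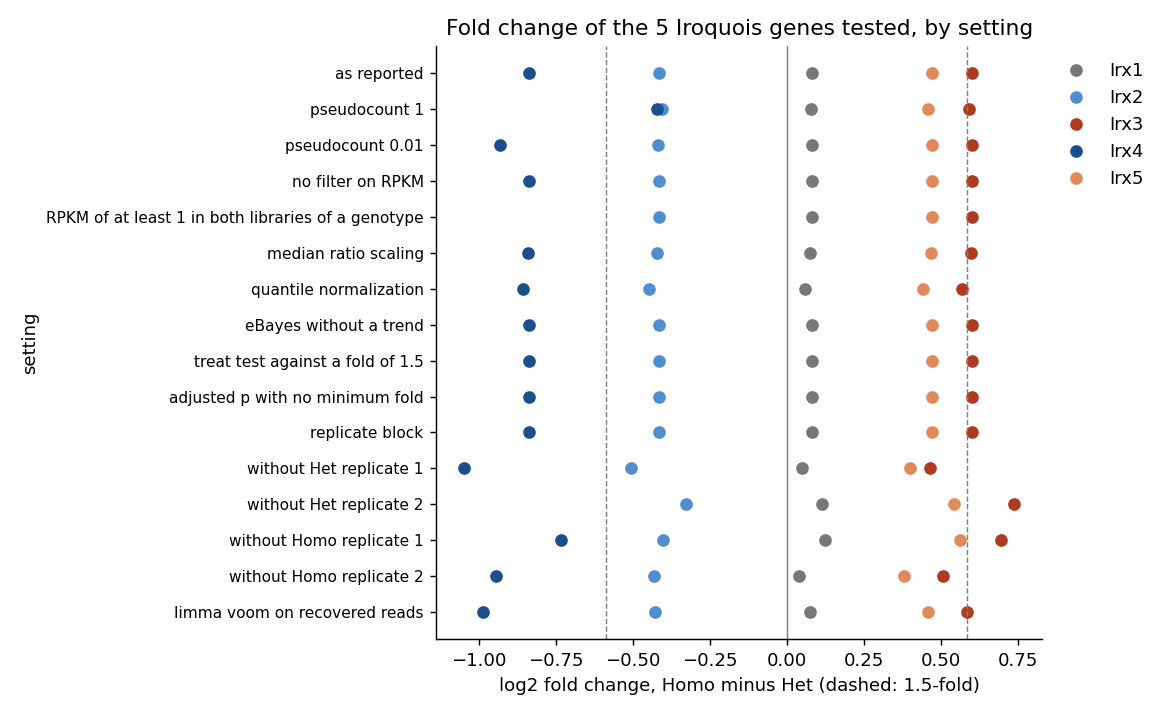
Log2 fold change, *Prdm13* Homo minus Het, of the 5 Iroquois genes tested under each way of processing the values, with dashed lines at a fold of 1.5. *Irx3* lies on both sides of the dashed line, between 0.46 and 0.74, while each gene stays on its own side of 0. Settings that alter only the filter, the test or the block repeat the same value.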

How the data were processed

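The deposited values are RPKM for 24421 genes in 4 libraries. Per the labels and the study's methods, the authors aligned reads to mm10 with TopHat2 2.1.0, counted reads on exons of RefSeq genes with featureCounts, normalized them by TMM in edgeR 3.6.8 and deposited RPKM. The version of the annotation, the read length and the strand setting are not given in the sources used here. Groups and replicate numbers were taken from the sample labels.

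RPKM were used as deposited, without further scaling. The test took in the 12046 genes whose mean RPKM reached 1 in Het or Homo. It was two-sided and run on log2(RPKM + 0.1), which is also the scale of the fold changes, with lmFit and eBayes (trend) of limma 3.58.1 under R 4.3.3. P-values were adjusted over all these genes by Benjamini-Hochberg. Calls required a 1.5-fold difference besides an adjusted p under 0.05. The step was checked on simulated data.

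Whole reads were recovered by solving each gene's exon length and the library sizes, with a tolerance of 0.002 reads or 7e-07 of the count, and 19198 of 19200 genes above 0 gave whole reads. For 14410 of these, the 6 Iroquois genes among them, only multiples of 1 length gave whole reads. For the rest several lengths did, so the read totals are estimates. limma voom on these reads called 810 genes. Poisson intervals are exact at 95%. Positions, sequences and overlaps are from RefSeq and GENCODE vM21 on GRCm38.

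The genes to be named were the 6 members, the genes of the lists, annotated genes within 1 Mb of a cluster, and the 3 tested genes nearest to each member. Some genes are not reported here, and the lists were counted without them, a choice made after their values were known. Members and lists were chosen with earlier results of these data known. The authors' ChIP-seq data were not used here. Python 3.11.15 was used with pandas 2.3.3, numpy 2.4.6, matplotlib 3.10.9 and scipy 1.17.1.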

Additional observations from a re-analysis of the deposited data

How the results depend on the processing

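No member tested changed direction under the alternatives that can move a fold change, which are the pseudocounts, scalings, voom and left-out libraries. The other alternatives repeat the same fold change and bear only on the calls. *Irx3* was not called with no filter on RPKM (log2 fold change 0.60, limma adjusted p = 0.233), with quantile normalization (0.57, adjusted p = 0.0128), with eBayes without a trend (0.60, adjusted p = 0.0536), with limma's treat test against the 1.5-fold (0.60, adjusted p = 1) or with limma voom on the recovered reads (0.58, adjusted p = 2.71e-06). Leaving out 1 library at a time it ranged from 0.46 to 0.74, and it was not called without Het replicate 1 or Homo replicate 2. With no minimum fold *Irx2* (-0.42) and *Irx5* (0.47) were called, and with voom *Irx4* was called (-0.99). *Irx2* and *Irx5* did not pass with no filter (limma adjusted p = 0.179 and 0.204). *Irx4* was not tested without Het replicate 2 or when both libraries of a genotype had to reach the filter, and *Irx6* was tested only with no filter. The cluster sums changed with scaling and left-out libraries only, from -0.26 to -0.12 for IrxA and from 0.44 to 0.66 for IrxB on the log2 scale.

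Over all genes, 440 were called higher and 322 lower. These counts were 30 and 14 with no filter, 131 and 77 with treat, 1176 and 1199 with no minimum fold, and 258 to 437 and 212 to 266 leaving out 1 library, the lowest without Homo replicate 2. The cause of these shifts was not tested. With the replicate number as a block, limma called 459 and 342 genes and no member's call changed (adjusted p = 0.000302 for *Irx3*). Libraries with the same number had deviations correlated at r = 0.0475 over 12046 genes, so over all genes the numbers showed little pairing. This value cannot decide it for the members. Each member tested was higher in replicate 2 than in replicate 1 in both genotypes, *Irx3* by 0.28 and 0.19 on the log2 scale. Whether the numbers pair the libraries for these genes was not tested. Depth limits *Irx4* and *Irx6*, which rest on 12 to 61 reads in a library.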
